A study of Drosophila melanogaster with 2 samples.

Results

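The genes described here encode the subunits of RNA polymerases I, II and III and the factors that control transcript elongation by polymerase II. They were chosen by symbol among protein-coding genes: all symbols that start with Polr1, Polr2 or Polr3, Spt followed by a number, all symbols that start with Nelf-, and TH1, Cdk9, CycT, dre4 and Ssrp, without regard to upper or lower case. This gave 44 genes of 13968 protein-coding genes. There were 7 polymerase I genes, 13 polymerase II genes, 10 polymerase III genes and 11 elongation factor genes. The other 3 genes, Spt3, Spt7 and Spt20, carry an Spt symbol but encode subunits of the SAGA coactivator, and were kept as a class of their own.

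Binding of the protein encoded by CG8478 was measured by ChIP-seq, in which crosslinked chromatin is sheared, pulled down with an antibody and sequenced. Transgenic Drosophila melanogaster embryos expressed CG8478 with an enhanced green fluorescent protein (eGFP) tag, were collected whole at 0 to 24 h, and an antibody against GFP was used. There was 1 group, strain CG8478-GFP, with 2 biological replicates and no second group. Whole embryos pool all cell types and all stages of embryogenesis, so a peak cannot be placed in a cell type or stage. Peaks were given by the authors for both replicates together (the conservative list used here) and for each replicate on its own. A gene was called bound when a peak summit of the conservative list lay within 500 bp of an annotated start site, and such a peak is called a promoter peak. The authors' peak signal has no stated scale, so it ranks peaks within a list and no fold is taken from it. The read depth is unknown.

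Polymerase I makes the large ribosomal RNA precursor, polymerase II makes messenger RNA, and polymerase III makes transfer RNA and other short RNAs. The enzymes have their own largest subunits, which form the catalytic centre, but share several small ones. In Drosophila embryos polymerase II often pauses shortly after initiation. DSIF (Spt4 and Spt5) and NELF hold it there, and the kinase P-TEFb (Cdk9 with cyclin T) releases it. Many promoters of widely expressed Drosophila genes hold the DNA replication-related element (DRE), TATCGATA, the site of the factor DREF.

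The sequences below come from the promoters that the binding results turn on: up to 2 bound genes of highest signal in each class, and Polr2A, the largest polymerase II subunit, which had no promoter peak. They were read from the NCBI RefSeq copy of the Release 6 genome (dm6) in the direction of the named gene, 5′ to 3′. Capitals mark ATCGATA on either strand, the core of the DRE. The stretches are the bases near the summit that lie outside annotated exons, or 30 bases around the DRE at Polr1D and around the summit at Polr2H, which lie in exons. The Polr3A stretch ends before its start site and does not hold the summit, which is in an exon.
Polr1D, chr2L:19133782-19133811, minus strand, around its DRE: catcggcgcgcTATCGATAcatcgatgacg
Polr2J, chr2L:17410503-17410640, minus strand: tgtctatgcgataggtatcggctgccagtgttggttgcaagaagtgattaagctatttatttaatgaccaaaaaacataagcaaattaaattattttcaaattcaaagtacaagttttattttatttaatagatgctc
Polr2H, chr3L:21728702-21728731, plus strand, around its summit: cagtcactagttagagaaaatccaataacg
Polr3A, chrX:15762895-15762955, plus strand: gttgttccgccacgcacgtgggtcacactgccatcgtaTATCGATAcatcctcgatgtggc
CycT, chr3L:17557789-17557928, minus strand: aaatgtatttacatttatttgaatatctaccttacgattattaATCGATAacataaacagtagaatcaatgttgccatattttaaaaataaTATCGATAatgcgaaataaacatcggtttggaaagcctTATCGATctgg
Nelf-A, chr3R:21223585-21223622, plus strand: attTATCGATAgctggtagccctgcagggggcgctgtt
Spt3, chr3R:12017032-12017155, plus strand: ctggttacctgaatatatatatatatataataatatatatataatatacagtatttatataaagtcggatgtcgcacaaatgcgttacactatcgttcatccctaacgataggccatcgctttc
Spt7, chrX:17850343-17850459, plus strand: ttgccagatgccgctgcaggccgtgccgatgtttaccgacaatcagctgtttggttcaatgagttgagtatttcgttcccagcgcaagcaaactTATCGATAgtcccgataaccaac
Polr2A, chrX:11570327-11570454, minus strand, the stretch before its start site: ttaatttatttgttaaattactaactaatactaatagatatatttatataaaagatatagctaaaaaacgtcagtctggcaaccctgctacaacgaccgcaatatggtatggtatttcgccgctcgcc

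CG8478-eGFP was found at the promoters of 20 of the 44 genes, or 45.5% (Wilson 95% interval 31.7 to 59.9), against 3152 of 13968 protein-coding genes, or 22.6% (21.9 to 23.3). Elongation factor genes had a promoter peak in 8 of 11 cases, or 72.7% (43.4 to 90.3), and the SAGA Spt genes in 3 of 3 (43.9 to 100). Polymerase II genes had it in 6 of 13 cases, or 46.2% (23.2 to 70.9). Polymerase III genes had it in 2 of 10 cases, or 20% (5.67 to 51.0), and polymerase I genes in 1 of 7, or 14.3% (2.57 to 51.3). The polymerase I and III shares are near that of all genes, and the intervals of the polymerase classes and of the elongation factors overlap. The intervals cover the counting error of genes only, and no test between classes was made.

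**Figure D1:**
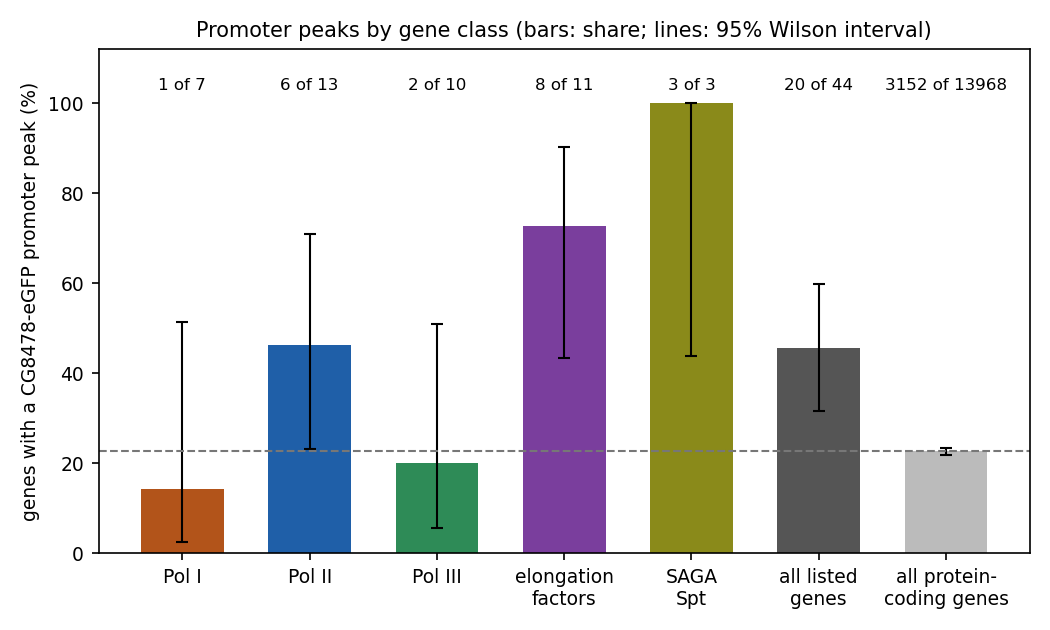
Share of genes with a CG8478-eGFP promoter peak (y axis, percent) in each class, in all 44 genes and in all protein-coding genes; vertical lines are Wilson 95% intervals, counts are printed above the bars and the dashed line marks 22.6%. The elongation factor bar stands at 72.7%, while the polymerase I and III bars stand below the dashed line.

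Subunits that several polymerases use were counted apart from those of 1 enzyme. Of the 7 genes whose products are in more than 1 polymerase (Polr1C, Polr1D, Polr2E, Polr2F, Polr2H, Polr2K and Polr2L), 4 had a promoter peak, or 57.1%, against 22.6% of all protein-coding genes. Of the subunits of 1 enzyme, 0 of 5 polymerase I genes, 3 of 8 polymerase II genes (37.5%) and 2 of 10 polymerase III genes (20%) had it, with the last share near the 22.6% of all genes. Over all 30 polymerase genes the count was 9, or 30%. Elongation factors and SAGA Spt genes together reached 11 of 14, or 78.6%.

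In the conservative list, both large subunit genes of polymerase III had a promoter peak, and neither gene of the same pair did for polymerase I or polymerase II. The share over all protein-coding genes was 22.6%. Polr3A, the largest polymerase III subunit, had a signal of 82.59 in the list of both replicates, with 32.93 in replicate 1 and 40.90 in replicate 2. Its peak (chrX:15762768-15763171, dm6) had its summit 14 bp after the start site, in the 5′ UTR. Polr3B, the second largest subunit, had 69.89, with 43.42 in replicate 1 and 28.40 in replicate 2, at chr2R:12038836-12039239 and 3 bp before the start site. Both peaks are in the lower part of the list: 25.3% and 18.3% of the 2411 promoter peaks of protein-coding genes rank at or below them. They are also weak in repeat, since Polr3A was in replicate 2's own list and not in replicate 1's, and Polr3B was in neither. In replicate 1's own list Polr1B, a polymerase I gene of this kind, was present and both polymerase III genes were absent.

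A gene without a promoter peak can still have an entry in the authors' ranked list. Such entries are common, since 76.0% of all protein-coding genes, bound or not, have one. The authors' ranked list holds weaker entries that did not pass their threshold on the irreproducible discovery rate (IDR), a measure of how poorly entries repeat between inputs. Entries of the conservative list had a −log10 IDR of at least 2.00. Polr1B, the second largest polymerase I subunit, had a ranked signal of 71.91 and a −log10 IDR of 1.71. It had 42.85 in replicate 1 and 21.20 in replicate 2, and a peak in replicate 1's own list. Its signal lies within the range of the bound genes, but its IDR missed the threshold. Polr1A, the largest polymerase I subunit, had 41.14, with 14.51 in replicate 1 and 29.91 in replicate 2. Polr2A had 37.11, with 19.87 in replicate 1 and 18.08 in replicate 2, at a −log10 IDR of 0.90. Polr2B, the second largest polymerase II subunit, had no entry in the ranked list of both replicates, and had 15.63 in replicate 1 and 13.72 in replicate 2.

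Alpha-like subunits form the platform on which each polymerase assembles. They were bound in 3 of 4 cases, against 22.6% of all protein-coding genes. The highest 2 signals among polymerase genes were at Polr2J and Polr1D. Both were lost when a peak counted for the closest start site alone. Polr2J had 382.39 in the list of both replicates, with 186.09 in replicate 1 and 188.99 in replicate 2. Its summit lay 172 bp before the start site (chr2L:17410461-17410703), between Polr2J and CG15141, whose start is nearer at 63 bp. Polr2C, the partner of Polr2J, had 128.47, with 88.79 in replicate 1 and 40.01 in replicate 2. Its summit was 101 bp before the start site (chr2L:13833034-13833437), in a window shared with PolG2 and GatC, which encode an accessory subunit of the mitochondrial DNA polymerase and an amidotransferase subunit. So both subunits of the polymerase II platform were bound, and Polr2C was the less even of them between replicates.

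Polr1D, the alpha-like subunit shared by polymerases I and III, had 336.64, with 189.93 in replicate 1 and 150.77 in replicate 2. Its summit (chr2L:19133612-19133877) lay 283 bp before a start site of Polr1D. It was 50 bp from the start of brat, a translational repressor transcribed the other way, which is the nearer gene. Polr1D has 2 annotated start sites, and the summit falls in an intron of its longer transcripts. The only bound polymerase I gene therefore rests on a peak nearer another gene. Polr1C, the partner of Polr1D, had no promoter peak, with a ranked signal of 29.05, 19.30 in replicate 1 and 22.37 in replicate 2.

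Of the 5 small subunits present in all polymerases, Polr2E, Polr2F and Polr2H were bound, against 22.6% of all protein-coding genes. Polr2H had 227.34, with 128.27 in replicate 1 and 109.75 in replicate 2. Its summit was 216 bp before the start site (chr3L:21728514-21728917) and inside the 5′ UTR of CG11247, whose start was 43 bp away. Polr2F had 68.55, with 36.26 in replicate 1 and 35.35 in replicate 2, and its summit lay 108 bp after the start site (chr3R:5371701-5372104), in the coding exon. Polr2E had 53.87, with 35.46 in replicate 1 and 24.05 in replicate 2, and a summit 22 bp after the start site in the 5′ UTR (chr2R:10898836-10899239). Polr2E had the lowest signal and the lowest −log10 IDR, 2.11, of the 20 bound genes, and was in neither replicate's own list, as was Polr2F. The unbound Polr2K had a ranked signal of 28.37, with no entry in replicate 1 and 17.76 in replicate 2. The unbound Polr2L had 20.41, with 16.65 in replicate 1 and 4.38 in replicate 2.

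The stalk, a dimer that protrudes from each polymerase near the RNA exit, was bound at 1 of the 4 genes described here. That share is near the 22.6% of all protein-coding genes. Polr2D, a polymerase II stalk subunit, had 165.60, with 87.62 in replicate 1 and 76.88 in replicate 2. The summit lay 16 bp before its start site (chr3R:18255439-18255596). Polr2D shares that start site with Ada2a, which encodes a subunit of the ATAC acetyltransferase complex, and the window also holds starts of moi, a telomere capping gene, and Tgs1, an RNA cap methyltransferase gene. The peak cannot be given to any of these genes alone. Its partner Polr2G had a ranked signal of 17.23, with no entry in replicate 1 and 11.19 in replicate 2. The polymerase I and III stalk genes Polr1F and Polr3I had ranked signals of 45.08 and 25.32, and Polr3I had no entry in replicate 2.

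Subunits that resemble the cleavage factor TFIIS (Polr1H, Polr2I and Polr3K) were bound in 0 of 3 cases, with ranked signals of 39.11, 19.27 and 21.32. Those that resemble the initiation factor TFIIF (Polr1E, Polr3D and Polr3E) were bound in 0 of 3 cases, with 37.63, 73.43 and 35.73. Polr3D stands out among these for unequal replicates: 59.67 in replicate 1, where it was in the own list, and 17.47 in replicate 2. In the ranked list of both replicates its −log10 IDR was 0.09. The polymerase III trio that opens the promoter (Polr3C, Polr3F and Polr3G) was bound in 0 of 3 cases. With 22.6% of all protein-coding genes bound, counts of 0 of 3 are too small to set these groups apart. Polr3C and Polr3F had 15.53 and 42.59, and Polr3G had no entry in any ranked list, alone among the 44 genes. Polr2M, the fly Gdown1, which associates with polymerase II, was also unbound, with 42.46 and a −log10 IDR of 1.48.

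**Figure D2:**
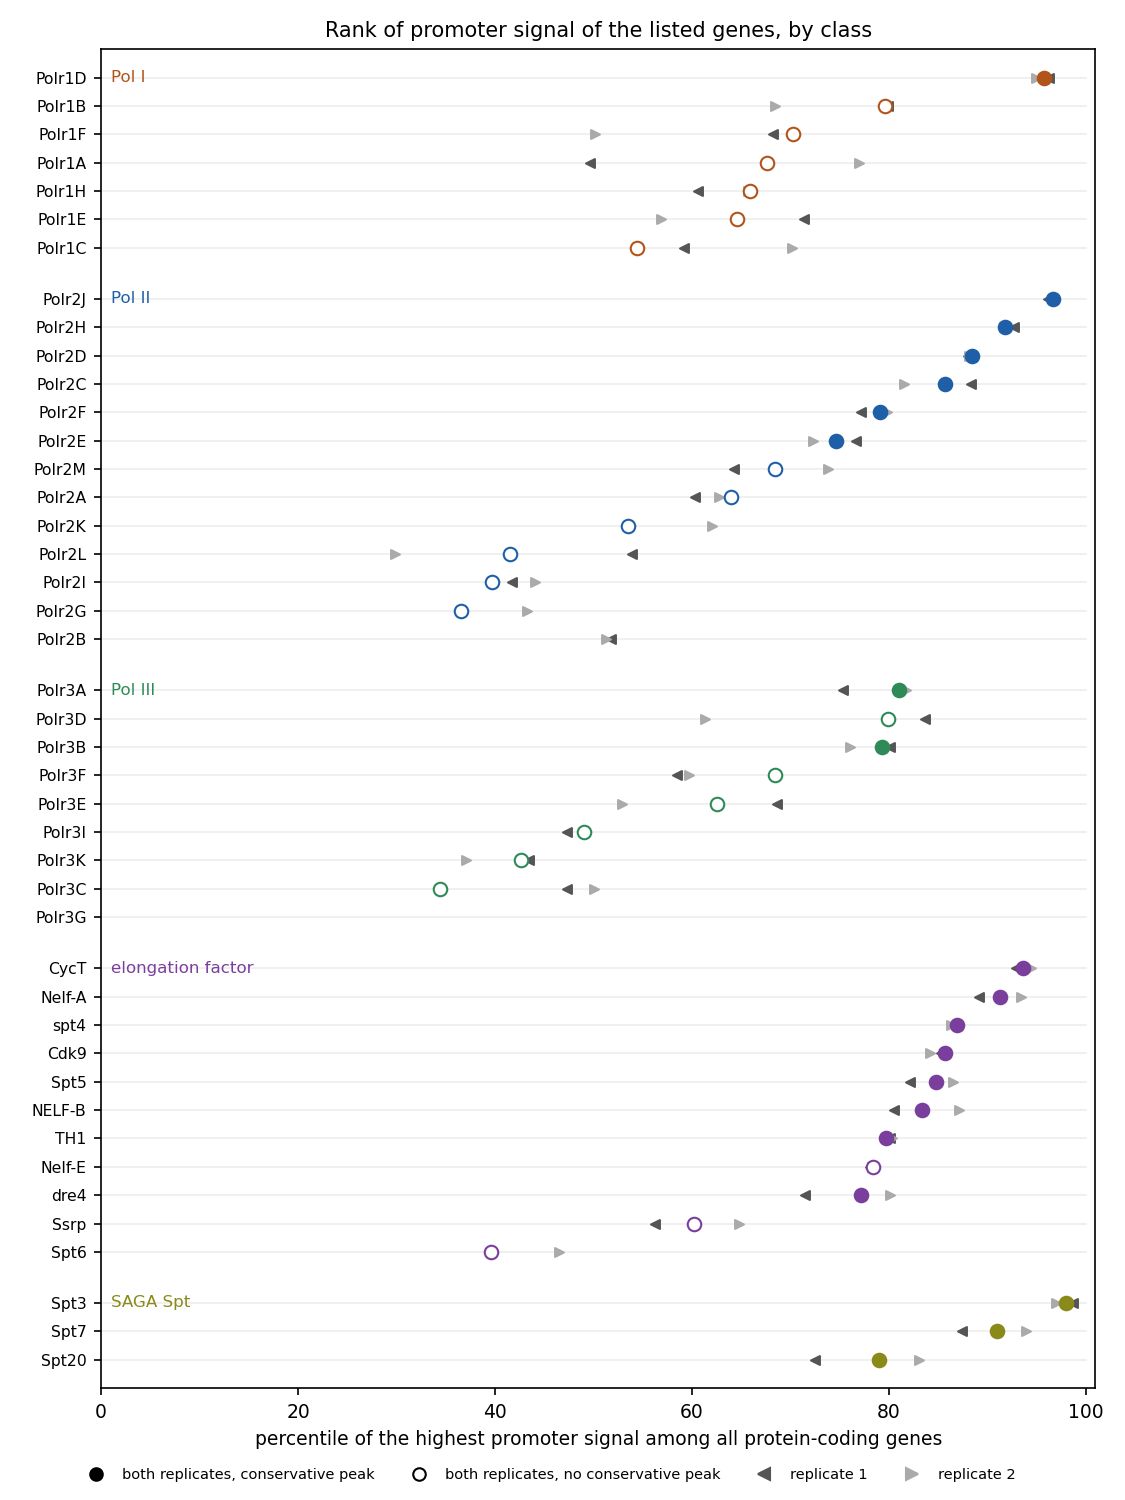
Percentile of each gene's highest promoter signal among all 13968 protein-coding genes (x axis) in the ranked list of both replicates (circles, filled for genes with a conservative promoter peak) and in each replicate's ranked list (triangles), with genes grouped by class and ordered by signal. Bound genes lie between the percentiles 74.6 and 98.0, and Polr3G has no point because it has no entry; 1 polymerase III gene is not shown.

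The genes that pause and release polymerase II were bound in most cases, against 22.6% of all protein-coding genes. Among those bound were both P-TEFb genes. CycT, which encodes cyclin T, had the highest signal of the elongation factors, 267.51, with 131.25 in replicate 1 and 141.28 in replicate 2. Its summit was 65 bp before the start site (chr3L:17557739-17557951), and no other protein-coding start site lay in the window. Cdk9, the kinase, had 128.15, with 67.56 in replicate 1 and 50.42 in replicate 2, and a summit 9 bp before the start site (chr2R:22637534-22637937). It shares the window with bonsai, which encodes a mitochondrial ribosomal protein. Both peaks were in the own lists of both replicates.

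Both DSIF genes were bound as well. The gene spt4 had 142.64, with 77.54 in replicate 1 and 63.52 in replicate 2, and its summit lay 6 bp before the start site (chr2R:12633381-12633784). Spt5 had 118.81, with 51.79 in replicate 1 and 64.10 in replicate 2, and its summit lay 92 bp before the start site (chr2R:19437189-19437592). Its window also holds a start of Fak, the focal adhesion kinase, and its peak was in replicate 2's own list and not in replicate 1's. The spt4 peak was in both own lists.

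NELF was bound at 3 of its 4 genes, against 22.6% of all protein-coding genes. Nelf-A had 217.71, with 94.93 in replicate 1 and 129.42 in replicate 2. Its summit lay 111 bp before the start site (chr3R:21223491-21223690), and 9 bp from the start of CG3337 on the other strand. NELF-B had 103.10, with 44.86 in replicate 1 and 68.48 in replicate 2, and a summit 60 bp before the start site (chrX:7728219-7728622). TH1, the NELF-D gene, had 72.51, with 43.41 in replicate 1 and 36.58 in replicate 2. The TH1 summit was 253 bp before its start site (chrX:16391489-16391892) and 7 bp from that of mei-41, the ATR kinase gene. TH1 was in neither replicate's own list, whereas Nelf-A and NELF-B were in both. Nelf-E, the RNA-binding subunit, had a ranked signal of 65.31, close to that of TH1, with 38.48 in replicate 1 and 32.01 in replicate 2, and missed the threshold at a −log10 IDR of 1.05.

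Of the 3 histone chaperone genes, dre4 was bound and Ssrp and Spt6 were not, beside 22.6% bound of all protein-coding genes. FACT, which carries histones past the polymerase, had a peak at dre4, its large subunit, and none at Ssrp. The dre4 peak (chr3L:1876130-1876533) was weak, with 61.22, or 28.07 in replicate 1 and 35.97 in replicate 2, a −log10 IDR of 2.27, and no entry in either replicate's own list. Its summit lay 20 bp before the start site. Ssrp had a ranked signal of 33.47, with 17.73 in replicate 1 and 19.00 in replicate 2. Spt6, the other histone chaperone of elongating polymerase II, had 19.21, with no entry in replicate 1 and 12.16 in replicate 2.

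All 3 SAGA Spt genes were bound, against 22.6% of all protein-coding genes. Spt3, which helps deliver the TATA-binding protein in yeast SAGA, had 469.40, with 270.63 in replicate 1 and 193.17 in replicate 2, the highest of all 44 genes in each list. Its summit lay 64 bp before the start site (chr3R:12016885-12017210) and 61 bp from that of DCAF12, which encodes a substrate receptor of a ubiquitin ligase. Spt7 had 211.78, with 81.39 in replicate 1 and 135.52 in replicate 2, and a summit 72 bp before the start site (chrX:17850351-17850479), where CG15814 was nearer at 46 bp. Spt20 had 68.09, with 29.07 in replicate 1 and 45.38 in replicate 2, and a summit 8 bp before the start site (chr3L:13502497-13502900). Spt20 was in replicate 2's own list and not in replicate 1's.

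The bound genes were not among the highest peaks as a set. The median signal of the 20 genes was 128.31 (53.87 to 469.40), against 165.72 for all 3152 protein-coding genes with a promoter peak (3.83 to 2181.38). The median percentile of their peaks among promoter peaks was 44.7. Ranked among all protein-coding genes, bound or not, the median percentile of the 44 genes was 75.9, with 72.0 in replicate 1 and 73.1 in replicate 2, against 50 for all genes. By class it was 83.4 for elongation factors, with 80.5 in replicate 1 and 84.2 in replicate 2. For polymerase III genes it was 62.1, with 52.9 in replicate 1 and 56.3 in replicate 2. These were the highest and lowest medians outside the 3 SAGA Spt genes in both replicates. Polymerase I and II genes could not be ordered, since polymerase I was higher in replicate 1 (68.3 against 64.3) and lower in replicate 2 (68.5 against 72.3).

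The replicates ranked the genes alike. Over the 38 genes with an entry in both replicates' ranked lists, Spearman's rho was 0.87 and Pearson's r of log2 signal was 0.88. Over the 20 bound genes these were 0.84 and 0.87. Those genes had passed a threshold on how well entries repeat between inputs, so their agreement is partly set by that choice. The values over all protein-coding genes are not given here. The points share genome positions, and the depth behind them is unknown, so the values are descriptive. Of the 20 bound genes, 12 were in the own lists of both replicates (60.0%), against 2287 of all 3152 bound protein-coding genes (72.6%). Polr2E, Polr2F, Polr3B, TH1 and dre4 were in neither (25.0%), against 387 of the 3152 (12.3%). Polr1B and Polr3D were in replicate 1's list without a conservative peak. With either own list alone, 14 of the 44 genes had a promoter peak in replicate 1, against 19.5% of all protein-coding genes, and 15 in replicate 2, against 18.8%. With a window of 250 bp the count was 18, against 19.8%, since Polr1D and TH1 were lost; with 1000 bp it was 21, against 24.8%, since Polr2G was added. The optimal list, a longer list of both replicates, gave 22 genes, against 23.5%; it added Polr1B, Polr3D and Nelf-E and lacked dre4. The 10 genes in the upper 50% of conservative peaks by signal compare with 14.0% of all genes. Of the 24 unbound genes, 22 had a ranked entry, with a signal of 15.53 to 73.43 and a median of 35.19. Bound or not, 42 of the 44 genes had a ranked entry (95.5%), against 76.0% of all protein-coding genes.

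**Figure D3:**
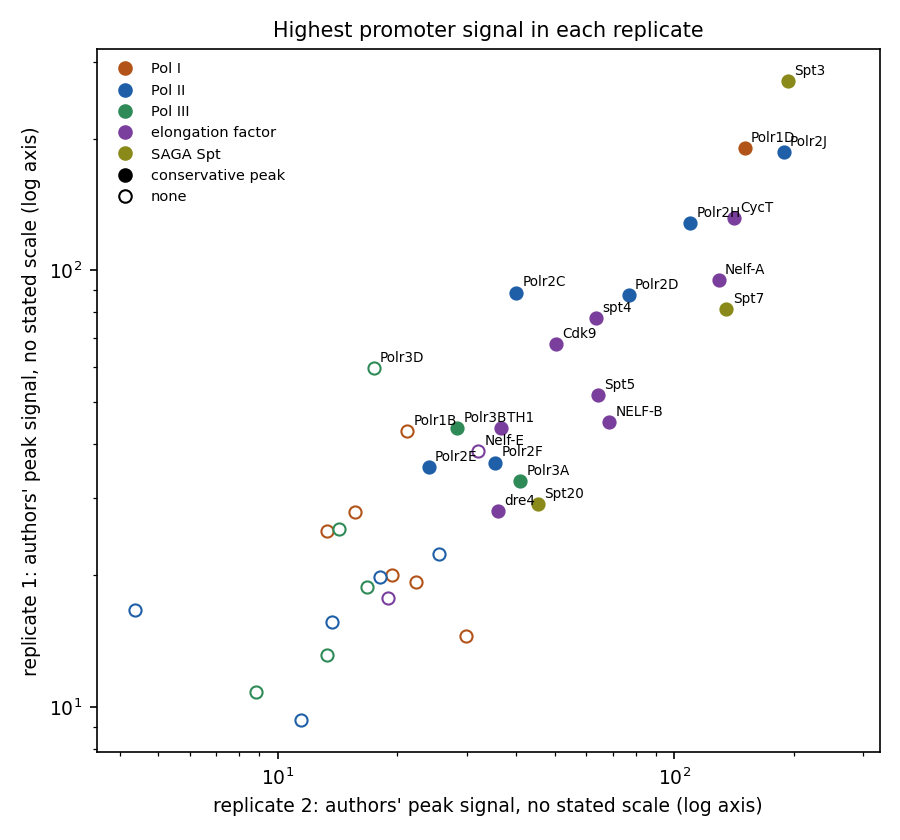
Highest promoter signal of each of the 38 genes with an entry in both replicates' ranked lists, replicate 2 on the x axis and replicate 1 on the y axis (log axes, authors' signal with no stated scale). Filled points are genes with a conservative promoter peak; Spt3, Polr2J and Polr1D lie at the upper right, and Polr3D lies off the trend at 59.67 in replicate 1 and 17.47 in replicate 2.

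The peaks sat just before the start sites. The median summit position of the 20 genes was 62 bp before the start site, at a signed distance of -62 bp (-283 to 108), against -76 bp for the 3132 other protein-coding genes with a promoter peak. The summit was upstream in 17 genes (85.0%), against 90.0% of the others, and within 100 bp in 13 (65.0%), against 57%. The median peak width was 404 bp in both sets. At 15 of the 20 genes the summit lay between annotated genes, and at Polr2E, Polr2F, Polr3A and Polr1D in the gene itself. The matching share for the other bound genes was not counted. None of the 44 genes had a further conservative peak in its body. That count was not made for other protein-coding genes either, so neither result is read as particular to the set.

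Many of these promoters are divergent, with a start site of another protein-coding gene on the opposite strand up to 500 bp upstream. This was so for 28 of the 44 genes (63.6%), against 27.2% of all other protein-coding genes. Among genes with divergent promoters, 12 of the 28 were bound (42.9%), against 46.1% of the others. Among genes without, 8 of 16 were bound (50%), against 13.7% of the others. For divergent promoters the share of the polymerase and elongation genes was thus near the background, and the higher share was seen at promoters that are not divergent. Most of those 8 bound genes had weak peaks. Only CycT and spt4 were in both replicates' own lists. Polr3A and Spt20 were in replicate 2's alone, and Polr2E, Polr2F, Polr3B and dre4 in neither. All but CycT and spt4 had signals of 53.87 to 82.59. Of the polymerase III genes, 0 of 7 with a divergent promoter were bound and 2 of 3 without. Of the 20 bound genes, 12 shared their peak window with another protein-coding start site, and in 7 the summit was nearer that other gene. The matching counts for all bound genes are not given here, so these are not read as particular to the set. Counting the closest start site alone also lowered the number of bound protein-coding genes from 3152 to 2299. When a peak counted for the closest start site alone, 14 of the 44 genes had a peak, against 16.5% of all genes, and Polr1D, Polr2H, Polr2J, Nelf-A, TH1 and Spt3 were lost; Spt7 was kept through a second, lower peak. CycT, spt4, dre4, Spt20, Polr2E, Polr2F, Polr3A and Polr3B were alone in their peak windows.

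**Figure D4:**
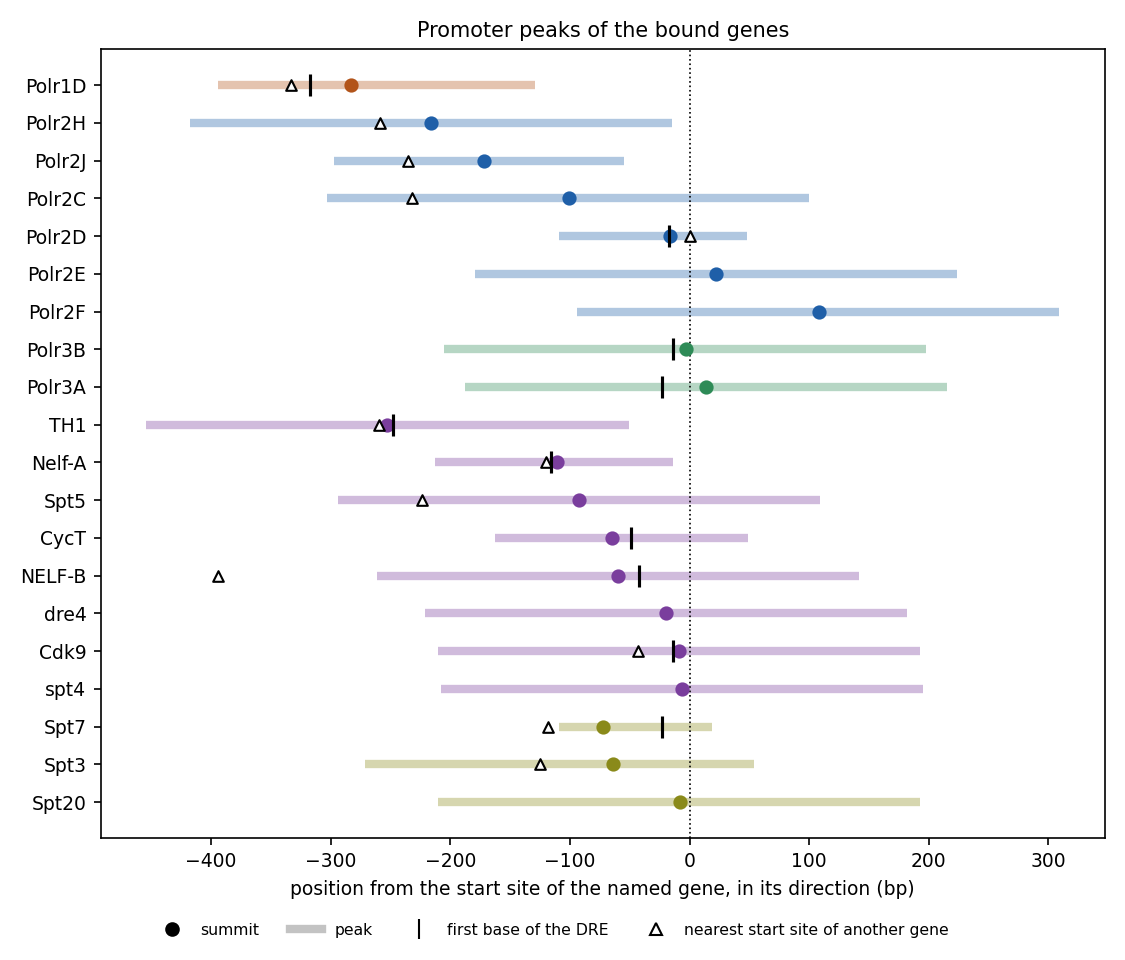
Promoter peaks of the 20 bound genes, 1 row per gene, with position from the start site of the named gene in its direction on the x axis (bp); bars are the peaks, points the summits, short vertical lines the first base of the DRE and open triangles the nearest start site of another gene. Summits lie between -283 and 108 bp, and at Polr1D, Polr2H, Polr2J, TH1, Nelf-A, Spt3 and Spt7 another gene's start is nearer than the named gene's own.

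The DRE was common in the bound promoters and rare in the unbound ones. TATCGATA was searched from 250 bp before to 50 bp after each start site. It reads the same on both strands, and each copy holds the core ATCGATA once on each. It was found at 9 of the 20 bound genes (45.0%), against 30.9% of the 3132 other bound genes, and at 9.24% of all 13968 promoters. Among the 24 unbound genes only Polr2L had it (4.17%), against 2.90% of other unbound genes. The core was found at 60.0% of the 20 bound genes, against 53.3% of the other bound genes, and at 20.8% of the 24 unbound genes, against 7.67% of other unbound genes. Its share over all promoters was 18%. Elongation factor genes had the core in 8 of 11 promoters and the DRE in 5 of 11.

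The bases around the summits were searched as well, for bound genes alone. In the 201 bp centred on the summit, 10 of the 20 peaks held the DRE (50%), against 31.0% of the 2391 other promoter peaks, and 13 held the core (65.0%), against 53.8%. The DRE peaks were those of Polr1D, Polr2D, Polr3A, Polr3B, Cdk9, CycT, NELF-B, Nelf-A, TH1 and Spt7. At Polr2D, Cdk9, Nelf-A and TH1 the first base of the DRE lay within 5 bp of the summit. Over the 10 DRE peaks this distance was 1 to 49 bp, with a median of 13.5 bp. The matching distances for other promoter peaks are not given here. In the Nelf-A sequence above, the summit falls within the capitals. In the CycT sequence the DRE starts 49 bp before the start site, between further copies of the core that start at 97 and 11 bp before it. The Polr1D copy lies 34 bp from the summit, 317 bp before the start site used and so outside its promoter window, in an exon of a longer Polr1D transcript.

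Peaks without a DRE also ranked high. The 10 peaks with the DRE had signals of 69.89 to 336.64 (median 146.88). Polr2C, Spt5 and spt4 had the core without the full DRE, with signals of 118.81 to 142.64. The 7 peaks without the core had a lower median of 68.55 but spanned 53.87 to 469.40, and held the highest 2 of all, Spt3 and Polr2J, whose printed sequences carry no capitals. The others were Polr2E, Polr2F, Polr2H, dre4 and Spt20. No match says only that these letters are not in the window.

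Other core promoter motifs did not follow binding in the same way. The core of motif 1, GGTCACACT, was found at 15% of the 20 bound genes, against 10.1% of other bound genes, and at 29.2% of the 24 unbound genes, against 4.82% of other unbound genes. Over all promoters it was at 6.06%. Among polymerase III genes 5 of 10 held it, Polr3A with copies that start 41 bp before and 23 bp after its start site; the copy before it precedes the DRE in the printed sequence. GGTATTTT, the core of motif 6, was at 10% of the 20 bound genes, against 5.72% of other bound genes, and at 16.7% of the 24 unbound genes, against 5.05% of other unbound genes. TATAAA was at 30% of the bound genes, against 44% of other bound genes. It was at 41.7% of the 24 unbound genes, against 46.1% of other unbound genes. The E-box CAGCTG was at 20% of the bound genes, against 21.0% of other bound genes. It was at 25.0% of the 24 unbound genes, against 16.8% of other unbound genes. Both strands were searched, and a match is a description, not a site.

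**Figure D5:**
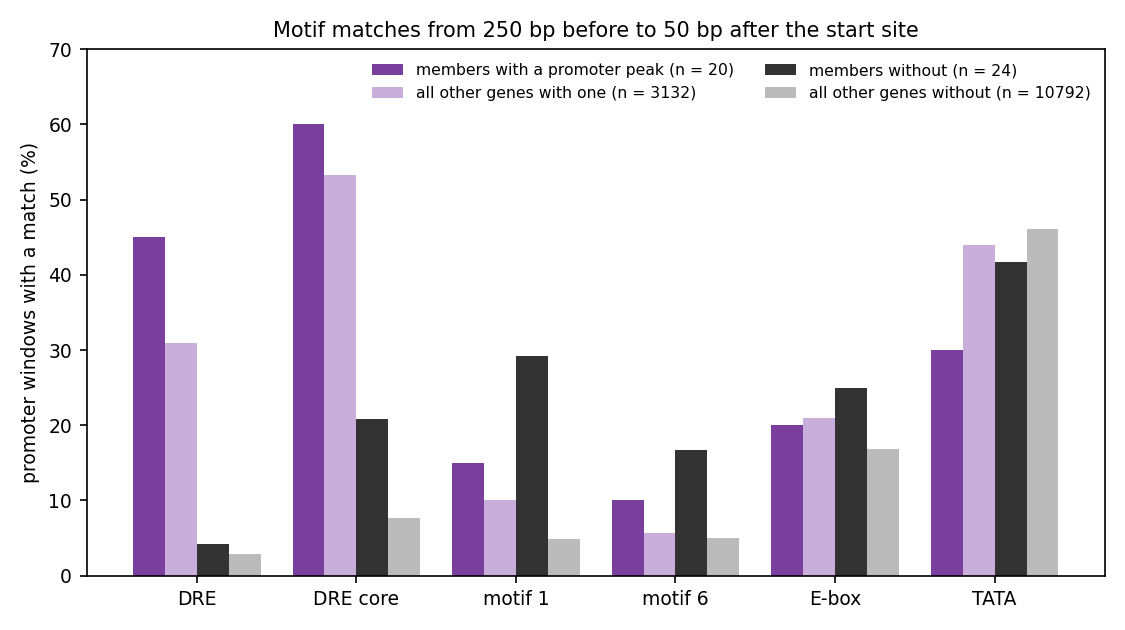
Share of promoter windows with a match on either strand (y axis, percent) for 6 motifs, in the 20 bound genes, the 3132 other bound genes, the 24 unbound genes and the 10792 other unbound genes. The DRE bars stand at 45.0% and 30.9% in the bound sets and at 4.17% and 2.90% in the unbound sets.

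Other genes of the same pathways were counted in 5 lists, to be read against the 22.6% of all protein-coding genes with a promoter peak. Of 7 genes of the PAF1 complex and of chromatin-linked elongation, 6 were bound (85.7%): Rtf1 with a signal of 357.92, Atu with 327.10, hyx with 211.35 and Ctr9 with 150.74, all PAF1 subunits, TfIIS with 83.77, and the histone methyltransferase gene Set2 with 62.02. The PAF1 gene atms was not. Of 10 genes of the super elongation complex, Elongin and the ribonucleoprotein that holds P-TEFb inactive, 5 were bound (50%). These were EloB with 563.82, lilli with 383.70, Larp7 with 277.50, EloA with 109.12 and bin3 with 58.48, while EloC, Eaf, ear, Su(Tpl) and Hexim were not. Of 6 genes of enzymes that act on the polymerase II C-terminal domain, 2 were bound (33.3%), the kinase gene Cdk7 with 240.88 and the phosphatase gene Ssu72 with 180.41.

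The remaining lists had shares near the 22.6% of all genes. Of 11 Integrator genes, whose complex cleaves nascent transcripts, 3 were bound (27.3%): IntS4 with 401.45, IntS8 with 307.63 and IntS10 with 93.13. Of 5 genes of polymerase I and III factors, only Brf was bound (20%), with 224.93. It encodes a polymerase III initiation factor, and Bdp1, Maf1, Tif-IA and Trf were unbound. No test was made of these lists.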

How the data were processed

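ChIP-seq peak lists from 2 biological replicates were used, in dm6 coordinates per the file headers. The authors' peak signal, as deposited, has no stated scale; the −log10 of the global IDR is also as deposited by the authors. Lists were made from the libraries and 1 control alignment, per the file headers; which aligner and which peak caller were used is not given in the sources used here. The control itself was not analysed here. Of entries with identical ends that of higher signal was used, on the 7 main arms, which left 2904 of 2948 conservative entries. Start sites came from Ensembl release 115 (same assembly). Each gene's ranked signal is the highest within 500 bp of a start site, taken from the deposited ranked list of both replicates or of each replicate. A conservative peak was in a replicate's own list when it overlapped a peak of that thresholded list by at least 1 bp; for a gene with none, a summit in the promoter window counted. Genes with no entry rank lowest. Depth is unknown, and Wilson intervals cover counting error only. No tests were made: there is 1 group, and genes are not replicates. The members and lists were chosen with earlier results of these data known. The genes are named apart from 1, which is counted but not reported here; sequences follow signal rank within each class, none from arm 2R. Of the symbols in the 5 pathway lists, Iws1, Ell and HEXIM matched no gene. On simulated data, 200 of 200 peaks placed within 500 bp of start sites were recovered. Of decoys placed farther from every start site, 0 were called. The simulation checks that the window rule was coded right and says nothing about peak detection. Tables were handled in pandas 2.3.3 and NumPy 2.4.6, intervals computed in SciPy 1.17.1 and plots drawn in matplotlib 3.10.9, under Python 3.11.15.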

Additional observations from a re-analysis of the deposited data

How the results depend on the processing

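Of the alternative values, 50 kept their value within the set limits and 14 moved. With either replicate's own list alone, 14 to 15 of the 44 genes had a promoter peak, 1 to 2 of polymerase I, 4 to 4 of polymerase II, 1 to 1 of polymerase III and 5 to 6 of the elongation factors, and the median percentile was 43.3 to 49.4. Without replicate 2, Polr1B was gained in polymerase I, and Polr3D replaced Polr3A and Polr3B in polymerase III. The optimal list gave 2 polymerase I genes, by adding Polr1B. The upper 50% of peaks by signal kept 10 genes, leaving 0 of polymerase III and 3 elongation factors, against 14.0% of all genes. A 250 bp window left 0 polymerase I genes, as did giving each peak to its nearest start site only, which also gave a median percentile of 30.2. Counting shared subunits apart left 0 polymerase I and 3 polymerase II genes. Exact case of symbols, and Spt3, Spt7 and Spt20 as elongation factors, were alternatives chosen after seeing the data. Peak lists hold calls, not reads, so signal below the authors' threshold and unknown depth limit every unbound call. No paired analysis was possible because there is 1 group.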
